A study of Mus musculus with 9 samples.

Results

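Transcripts of 9 genes of the Hedgehog pathway were followed, namely those of the co-receptors Boc, Cdon and Gas1, the inhibitor Hhip, the receptor Ptch1, the signal transducer Smo and the transcription factors Gli1, Gli2 and Gli3. All probe sets annotated to these genes alone were taken, 24 of the 45037 tested, and each was read separately. A probe set is a group of short oligonucleotides on an Affymetrix array that together report part of a transcript, and its value is given as log2 RMA (Robust Multichip Analysis) expression, so that a difference of 1 is a doubling. Because probe sets bind with different strength, levels were compared between samples and not between probe sets or genes.

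The cells were sorted by GFP fluorescence from the hypaxial part of interlimb somites, dissected from mouse embryos at embryonic day 9.5. That tissue is the one in the titles, sources and tissue labels, whereas the treatment protocol of the labels names forelimb buds. Each of 3 groups had 3 samples, 9 in all. PAX3-FKHR/GFP cells were GFP positive and came from embryos in which a Pax3 allele carried GFP and the other, after recombination through a PGK-Cre transgene that is not restricted to somites, produced PAX3-FKHR, an oncoprotein of alveolar rhabdomyosarcoma in which the DNA binding part of PAX3 is joined to the transactivating part of FKHR (FOXO1). GFP/+ cells were GFP positive and came from embryos with the GFP allele and an untargeted Pax3 allele. GFP- cells were the GFP negative cells of the dissected tissue, and the labels do not give their genotype. The study sets them against the GFP positive cells of GFP/+ embryos, and its list of hybridized groups also names Pax3+/+ and does not say which cells that group holds. The targeted lines were on a C57 BL6/DBA2 background, and tissue from many embryos of a genotype was pooled before sorting. Whether GFP/+ embryos also carried PGK-Cre is not given in the sources used here. The study calls its triplicates biological, but the labels do not say whether they came from separate pools of embryos, so that the p-values measure the spread between these samples.

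Hedgehog ligands such as Shh, which the notochord and floor plate release next to the somites, bind the receptor Ptch1 and thereby free Smo from inhibition. Boc, Cdon and Gas1 bind the ligand at the cell surface and promote this step, whereas Hhip binds the ligand and sequesters it. Active Smo changes the balance between the activator and repressor forms of Gli2 and Gli3, and Gli1, Ptch1 and Hhip are themselves transcriptional targets, so that their transcripts serve as readouts of the pathway. In the somite Hedgehog promotes formation of the sclerotome, the precursor of vertebrae and ribs, and takes part in the activation of myogenic genes. Boc and Cdon, which are related proteins of the immunoglobulin superfamily, are also known to promote myogenic differentiation through contacts between muscle precursors.

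Promoter sequences were looked up in RefSeq (GRCm38.p6) as windows of 300 bases, 250 before and 50 after the annotated start, and 7 of the 9 genes matched. Boc and Gli1 were not among them. The windows of Cdon (chr9:35451826-35452125, + strand) and Gas1 (chr13:60177486-60177785, - strand) are shown because both genes had a probe set higher with PAX3-FKHR, and that of Hhip (chr8:80057959-80058258, - strand) because Hhip, a target of the pathway, had none. The annotated start of Cdon used here lies 30548 bases inside the gene. Capitals mark matches on either strand to CCACCC (the core of a GLI site), GTCACGC (a site bound by paired domains) or ATTA (the core bound by homeodomains).
Cdon: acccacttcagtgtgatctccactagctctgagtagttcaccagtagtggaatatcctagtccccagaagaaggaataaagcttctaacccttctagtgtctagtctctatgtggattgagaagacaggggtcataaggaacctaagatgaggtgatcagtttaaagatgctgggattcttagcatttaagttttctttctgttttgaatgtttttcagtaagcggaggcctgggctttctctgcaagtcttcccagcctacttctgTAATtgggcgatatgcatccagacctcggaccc
Gas1: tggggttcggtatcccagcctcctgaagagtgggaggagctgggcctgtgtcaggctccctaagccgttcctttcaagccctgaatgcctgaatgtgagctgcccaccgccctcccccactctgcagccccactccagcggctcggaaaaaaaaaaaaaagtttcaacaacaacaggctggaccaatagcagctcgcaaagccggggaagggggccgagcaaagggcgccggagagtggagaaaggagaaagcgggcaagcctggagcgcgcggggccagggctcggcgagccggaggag
Hhip: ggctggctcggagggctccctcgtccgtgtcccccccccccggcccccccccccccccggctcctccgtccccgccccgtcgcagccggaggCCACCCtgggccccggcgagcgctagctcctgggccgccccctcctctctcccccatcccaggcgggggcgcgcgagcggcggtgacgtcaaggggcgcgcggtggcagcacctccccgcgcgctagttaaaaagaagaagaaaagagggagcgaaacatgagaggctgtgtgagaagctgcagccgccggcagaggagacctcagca
The Cdon window held 1 homeodomain core, which reads TAAT on the strand shown and begins at position 18, where the start is counted as position 1. The Hhip window held 1 GLI core, which begins at position -158 (the base before the start is -1), and the Gas1 window held none of the motifs. CCACCC was found in 4 of the 7 windows and in 31.5% of 32851 RefSeq promoter windows of the same length, and ATTA in 2 of 7 and in 58.0%. The GC content was 44.7% in the Cdon window and 62.3% to 76.3% in the others, where the median over all windows was 52.7%. The shares over all windows are thus not matched for base composition. The longer GLI site GACCACCCA, which contains CCACCC, was found in 0 of 7 and in 0.253% of all windows, GTCACGC in 0 and in 2.09%, and a pair of inverted ATTA cores separated by 3 bases, to which homeodomains bind as dimers, in 0 and in 0.487%. These matches are a description of the letters in the windows, and binding was not measured here.

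The arrays were alike in overall level, with medians of 4.63 to 4.68 on the log2 scale, and correlations within groups were 0.996 to 0.998. The widths of the distributions differed most among the PAX3-FKHR/GFP samples, where the SD over all probe sets was lowest in replicate 1 (2.33) and highest in replicate 3 (2.43) of the 9 arrays. Pax3, the targeted locus, had 3 probe sets, and they read 53.2% to 57.8% of the GFP/+ level in PAX3-FKHR/GFP cells. They averaged 8.18 to 9.26 in GFP/+ cells and 2.71 to 4.50 in GFP- cells, where all 3 means lay below the array medians, so no fold is given. Whether these probe sets lie in the part of Pax3 that the fusion keeps was not determined. All 9 dermomyotome markers examined (such as Meox1 and Tcf15) were higher in GFP/+ than in GFP- cells, as were 5 of 6 sclerotome markers and 4 of 5 neural crest markers, so transcripts typical of those cells were also enriched in the GFP positive fraction. Pax3 is itself among the 9, and since the cells were sorted by GFP from its locus, its difference was set by the sort.

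PAX3-FKHR/GFP cells were compared with GFP/+ cells to ask which transcripts differ when PAX3-FKHR is produced in place of Pax3. GFP/+ cells keep an untargeted Pax3 allele, whereas the study states that PAX3-FKHR/GFP embryos do not transcribe mouse Pax3. Gain of the fusion and loss of Pax3 therefore cannot be told apart here. Boc, Cdon and Gas1 each had probe sets that were higher in PAX3-FKHR/GFP cells, by 1.47- to 1.81-fold, while no probe set of Hhip, Ptch1, Smo or the Gli genes was called. A probe set was called at an adjusted p under 0.05 (limma, Benjamini-Hochberg over all probe sets tested) and a log2 difference of at least 0.5, or 1.41-fold. By this rule 4 of the 24 probe sets (16.7%) were higher, 0 were lower and 20 were not called, where 1.36% of all probe sets were called, 0.884% higher and 0.473% lower. At an unadjusted p under 0.05 limma gave 7 higher and 1 lower (Gli1). The share of all probe sets at an unadjusted p is not given, here or for later comparisons. The local pooled error test, which the study used, called 4 higher and 0 lower. Over all probe sets it called 383 higher and 193 lower. The median difference was 0.05 over the 24 and -0.004 over all probe sets on the log2 scale.

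Boc, a co-receptor that binds Shh directly, had the largest difference of the 24 probe sets. Probe set 1426869_at read 8.68, 8.90 and 8.76 in PAX3-FKHR/GFP cells, 7.99, 7.83 and 7.94 in GFP/+ cells and 6.12, 6.26 and 6.27 in GFP- cells. The 3 groups were fully separated, in that order. The level was higher by 0.86 ± 0.086 (log2 difference ± SE, n = 3 each) in PAX3-FKHR/GFP cells than in GFP/+ cells, or 1.81-fold with a 95% interval of 1.59 to 2.07 (limma adjusted p = 0.000391).

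A second Boc probe set, 1427516_a_at, gave the same order, with 8.45, 8.21 and 8.31 in PAX3-FKHR/GFP cells, 7.72, 7.83 and 7.76 in GFP/+ cells and 6.80, 6.77 and 6.71 in GFP- cells. Its difference of 0.55 ± 0.085 (limma adjusted p = 0.00671) lay close to the fold limit. At a limit of 1.5-fold, which the study's methods state beside their log2 value of 0.5, it was not called, and 3 of the 24 probe sets were. It fell under the limit of 0.5 without PAX3-FKHR/GFP replicate 1 (0.49) and missed the p threshold without GFP/+ replicate 3 (limma adjusted p = 0.0644). The 2 probe sets followed each other over the 9 arrays (Pearson r = 0.985, a description over samples that share the groups). The third, 1427517_at, read 3.20 to 3.38 in all samples, below the median of every array, and differed by -0.10 ± 0.072 between PAX3-FKHR/GFP and GFP/+ cells. It therefore gave no level above that of most probe sets on the array in any group.

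Cdon, the related co-receptor, was likewise higher with PAX3-FKHR. Probe set 1434957_at read 10.35, 10.45 and 10.70 in PAX3-FKHR/GFP cells, 9.74, 9.71 and 9.68 in GFP/+ cells and 9.12, 9.37 and 9.49 in GFP- cells. All PAX3-FKHR/GFP samples lay above all GFP/+ samples, which in turn lay above all GFP- samples. The difference with PAX3-FKHR was 0.79 ± 0.098, or 1.73-fold with an interval of 1.49 to 2.02 (limma adjusted p = 0.00155, n = 3 each).

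The dimmer Cdon probe set, 1421452_at, had the same direction. It read 5.11, 5.24 and 5.15 in PAX3-FKHR/GFP cells against 4.78, 4.87 and 4.86 in GFP/+ cells. These groups did not overlap, but the difference of 0.33 ± 0.088 did not pass (limma adjusted p = 0.13). Over the 9 arrays the correlation of the 2 Cdon probe sets was 0.959.

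Gas1 encodes a surface protein anchored to the membrane by a lipid, which has no resemblance to Boc and Cdon but also binds Shh. Its probe set 1448494_at read 10.64, 10.93 and 10.81 in PAX3-FKHR/GFP cells, 9.80, 10.10 and 10.10 in GFP/+ cells and 9.79, 10.06 and 9.85 in GFP- cells. PAX3-FKHR/GFP cells stood above both other groups, which overlapped. The difference from GFP/+ cells was 0.79 ± 0.11, or 1.73-fold with an interval of 1.47 to 2.05 (limma adjusted p = 0.00315, n = 3 each).

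The 2 further Gas1 probe sets also had PAX3-FKHR/GFP samples wholly above GFP/+ samples but were not called. The brightest, 1416855_at, read 11.97, 12.13 and 12.31 in PAX3-FKHR/GFP cells against 11.90, 11.68 and 11.72 in GFP/+ cells, a difference of 0.37 ± 0.11 (limma adjusted p = 0.179). The PAX3-FKHR/GFP samples of this bright probe set ran in the order of the widths of their arrays, and so did those of Cdon 1434957_at. When the values were quantile normalized once more, the SD of the PAX3-FKHR/GFP samples was 0.046 in place of 0.17 for Gas1 1416855_at and 0.072 in place of 0.18 for Cdon 1434957_at. The Gas1 difference was then 0.35 ± 0.055 (limma adjusted p = 0.00725), still under the fold limit. The dimmest, 1456322_at, differed by 0.24 ± 0.11 (limma adjusted p = 0.51).

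**Figure D1:**
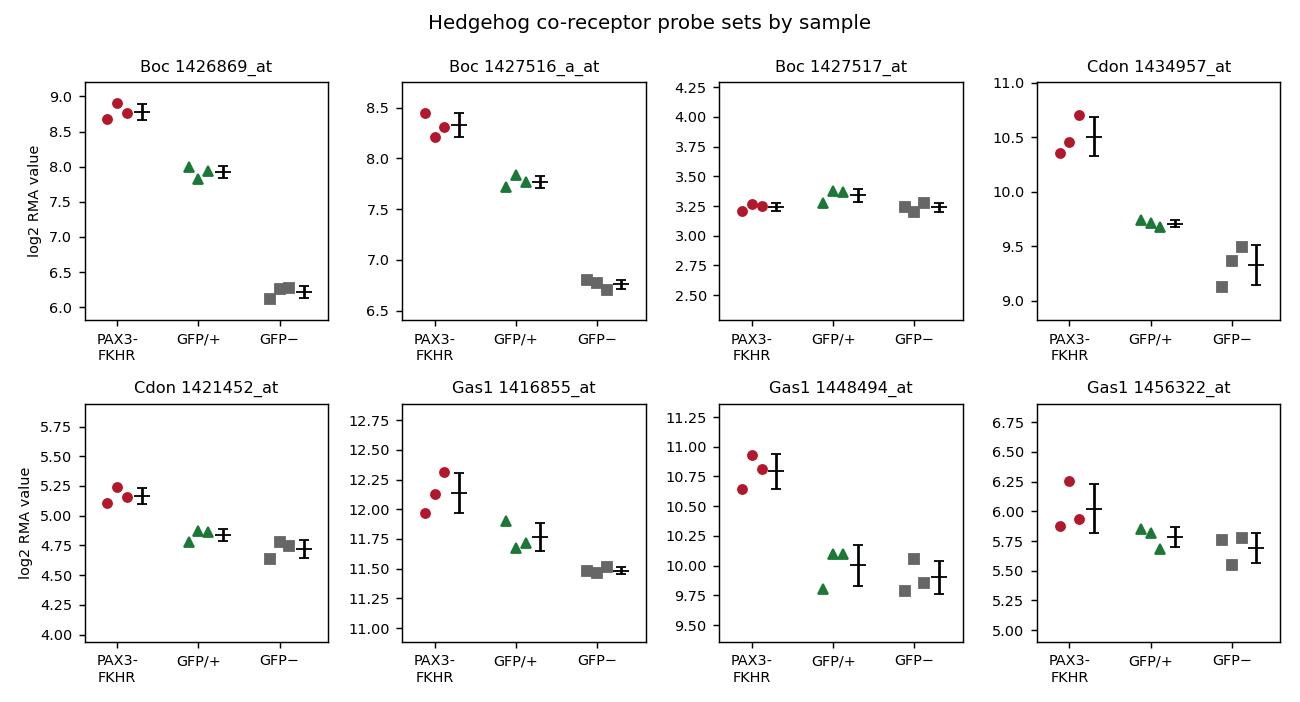
Log2 RMA values of the 8 probe sets of Boc, Cdon and Gas1, with 1 point per sample and, beside the points, the mean ± SD of 3 samples for PAX3-FKHR/GFP, GFP/+ and GFP- cells (left to right). Boc 1426869_at averaged 8.78, 7.92 and 6.22 in these groups with no overlap, whereas Boc 1427517_at stayed between 3.20 and 3.38.

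How a gene with several probe sets was read set the number of genes called. With each probe set read separately, 3 of the 9 genes had a probe set that was higher with PAX3-FKHR. With the brightest probe set per gene these were Boc and Cdon, since the brightest Gas1 probe set was under the limit. With the mean over a gene's probe sets only Cdon passed (0.56 ± 0.067, limma adjusted p = 0.000878), and Boc (0.44 ± 0.057) and Gas1 (0.47 ± 0.080) lay under the fold limit with adjusted p-values of 0.0015 and 0.00937.

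The inhibitor and the receptor were not called. Hhip had 4 probe sets, with differences between PAX3-FKHR/GFP and GFP/+ cells of -0.06 to 0.22 on the log2 scale and overlapping groups in all 4. Probe set 1438083_at lay below the median of every array, and the others were dim, with group means of 4.88 to 5.76. Pairs of Hhip probe sets correlated at -0.263 to 0.782 over the 9 arrays, so these signals limit what could be seen for Hhip. The brightest, 1455277_at, read 5.65, 5.80 and 5.82 in PAX3-FKHR/GFP cells against 5.31, 5.65 and 5.65 in GFP/+ cells and 5.60, 5.54 and 5.68 in GFP- cells. Its difference with PAX3-FKHR was 0.22 with a 95% interval of -0.02 to 0.47 (limma adjusted p = 0.56), an interval that reaches almost to the fold limit.

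Ptch1, whose transcription rises when the pathway is active, was read by 3 probe sets, of which 1428853_at was the bright one. Its values were 10.58, 10.81 and 11.01 in PAX3-FKHR/GFP cells, 10.88, 10.68 and 10.73 in GFP/+ cells and 11.25, 11.15 and 11.33 in GFP- cells. PAX3-FKHR/GFP and GFP/+ samples overlapped, and the difference between them was 0.04 with an interval of -0.22 to 0.29 (limma adjusted p = 0.963). Renewed quantile normalization brought the SD of the PAX3-FKHR/GFP samples to 0.083 in place of 0.22. The dimmer 1450824_at and 1439663_at differed by -0.19 ± 0.11 and -0.14 ± 0.13, and 1439663_at lay below the median of every array.

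Smo, the membrane protein that Ptch1 holds inactive, differed by -0.11 to -0.01 over its 3 probe sets between PAX3-FKHR/GFP and GFP/+ cells, and these 2 groups overlapped in each. Probe set 1427048_at read 9.30, 9.39 and 9.52 in PAX3-FKHR/GFP cells against 9.32, 9.54 and 9.67 in GFP/+ cells and 9.61, 9.53 and 9.58 in GFP- cells, a difference with PAX3-FKHR of -0.11 ± 0.10 (limma adjusted p = 0.821). In this probe set PAX3-FKHR/GFP samples lay wholly below GFP- samples, by -0.17 ± 0.079 (limma adjusted p = 0.286). The bright 1427049_s_at differed by -0.01 ± 0.10. It and Gli2 1446086_s_at are of a type that can match more than 1 transcript, and 1442215_at lay below the median of every array.

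Gli1, the Gli gene most dependent on pathway activity, was read by 1 probe set, 1449058_at. It gave 6.60, 6.61 and 6.61 in PAX3-FKHR/GFP cells, 6.74, 6.82 and 6.97 in GFP/+ cells and 6.72, 6.75 and 6.75 in GFP- cells. The PAX3-FKHR/GFP samples lay below all others, but the difference from GFP/+ cells, -0.23 with an interval of -0.42 to -0.05, was not called (limma adjusted p = 0.334). Gli2, the main activator, differed by 0.01 ± 0.074 and 0.07 ± 0.092 in its 2 probe sets.

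Gli3, which acts mostly as a repressor, had 3 probe sets that did not behave alike. Probe set 1456067_at read 9.56, 9.63 and 9.79 in PAX3-FKHR/GFP cells, 9.44, 9.36 and 9.22 in GFP/+ cells and 9.58, 9.60 and 9.58 in GFP- cells. The PAX3-FKHR/GFP samples lay above the GFP/+ samples, with a difference of 0.32 ± 0.092 (limma adjusted p = 0.164). The other bright one, 1455154_at, overlapped between the groups (0.12 ± 0.081), and 1450525_at lay below the median of every array. Over the 20 probe sets not called, the bounds of the 95% intervals ran from -0.43 to 0.61, and the interval reached past the fold limit in 3 of them, Gas1 1416855_at, Cdon 1421452_at and Gli3 1456067_at.

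**Figure D2:**
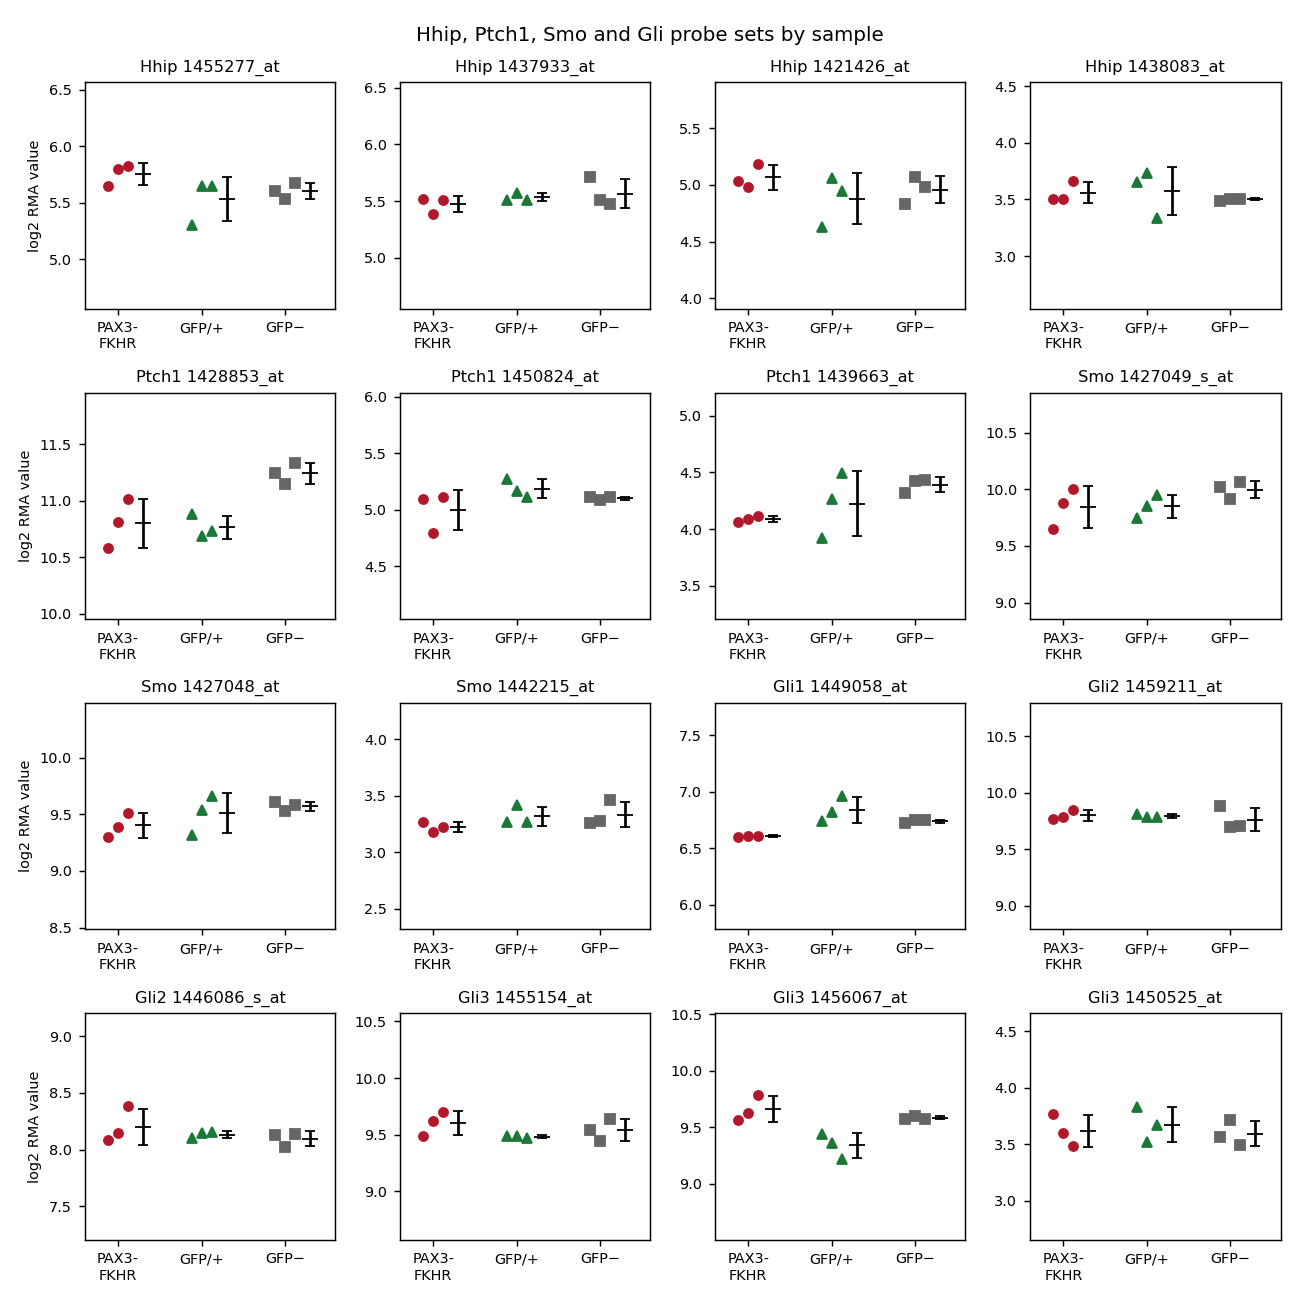
Log2 RMA values of the 16 probe sets of Hhip, Ptch1, Smo, Gli1, Gli2 and Gli3, with 1 point per sample and the mean ± SD of 3 samples for PAX3-FKHR/GFP, GFP/+ and GFP- cells (left to right). Ptch1 1428853_at averaged 10.80, 10.77 and 11.24 in these groups and Gli1 1449058_at 6.61, 6.84 and 6.74.

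Groups that do not overlap were frequent among the 24 probe sets in this comparison. PAX3-FKHR/GFP samples lay wholly above GFP/+ samples in 8 probe sets, wholly below in 3 and overlapped in 13, so that 45.8% were separated, where 13.1% of all probe sets were (6.4% above and 6.72% below). The 8 were 2 of Boc, 2 of Cdon, 3 of Gas1 and Gli3 1456067_at. The 3 were the dim Boc 1427517_at, Ptch1 1450824_at and Gli1. Probe sets of a gene read the same RNA and are not independent, and 7 of the 8 belong to the co-receptors.

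Markers of other cell states differed between the same groups. All 6 muscle differentiation markers (Myog, Myf6, Myh3, Tnnc2, Actc1 and Ttn) were lower in PAX3-FKHR/GFP cells than in GFP/+ cells, with summed linear signals of 1090 to 1280 in PAX3-FKHR/GFP samples and 2550 to 2800 in GFP/+ samples. Of the 9 dermomyotome markers 4 were higher and 2 lower. Those lower were Sim1 and Pax3, the targeted locus. Sums over the 9, Pax3 included, were 5190 to 6380 in PAX3-FKHR/GFP samples against 4700 to 4820 in GFP/+ samples. Of the sclerotome markers 1 was higher and 2 were lower (sums of 1620 to 1920 in PAX3-FKHR/GFP samples against 2120 to 2210 in GFP/+ samples). Of 5 neural crest markers limma and the local pooled error test each called 0, with 3 higher at an unadjusted p under 0.05 (sums of 2180 to 2630 in PAX3-FKHR/GFP samples against 1880 to 2050 in GFP/+ samples). Among them Tfap2a passed the p threshold under the fold limit (0.45, limma adjusted p = 0.0157). Of 7 neural tube markers Pax6 (-0.74, limma adjusted p = 0.00164) and Neurog2 (-0.78, limma adjusted p = 0.0103) were lower, with sums of 662 to 824 in PAX3-FKHR/GFP samples against 849 to 864 in GFP/+ samples. Of 5 surface ectoderm and endoderm markers Tcfap2c was higher (0.61, limma adjusted p = 0.0224), with sums of 467 to 499 in PAX3-FKHR/GFP samples against 394 to 429 in GFP/+ samples. The study names Tcfap2c as a marker of neural crest. Of 3 primitive erythroid markers, each read from its brightest probe set, limma and the local pooled error test each called 0. At an unadjusted p under 0.05 limma gave 2 higher. Hbb-bh1 (0.4975, limma adjusted p = 0.0115) passed the p threshold just under the fold limit, and 1 other Hbb-bh1 probe set was called higher by limma. The sums of these markers were 595 to 671 in PAX3-FKHR/GFP samples against 448 to 480 in GFP/+ samples. The part of these differences in the co-receptor result was not tested. In sorted bulk samples, fewer cells of a type and less RNA per cell cannot be told apart.

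GFP/+ cells were compared with GFP- cells to ask which transcripts mark Pax3 expressing cells in this tissue. Boc was the gene called among the 9, with 2 probe sets (8.33%) called higher and 0 lower by limma, where 4.65% of all probe sets were called, 1.42% higher and 3.24% lower. Boc 1426869_at was higher by 1.70 ± 0.074 in GFP/+ cells, or 3.26-fold (limma adjusted p = 2.57e-07), and 1427516_a_at by 1.01 ± 0.064, or 2.02-fold (limma adjusted p = 4.02e-06).

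Below the fold limit, 4 more probe sets passed the p threshold. Without a fold limit 4 of the 24 were thus higher and 2 lower, where 8.76% of all probe sets passed the p threshold at any difference. Cdon 1434957_at was higher in GFP/+ cells by 0.38 ± 0.085 (limma adjusted p = 0.0203) and Gas1 1416855_at by 0.28 ± 0.061 (limma adjusted p = 0.0176). Ptch1 1428853_at was lower by 0.48 on the log2 scale (-0.48 ± 0.066, limma adjusted p = 0.00115) and Gli3 1456067_at by 0.24 (-0.24 ± 0.063, limma adjusted p = 0.041). The Ptch1 difference was thus close to the limit, and it passed without GFP/+ replicate 1 (-0.53) or without GFP- replicate 2 (-0.52). It was also called by the local pooled error test, which called 1 of the 24 probe sets lower in this comparison (-0.52 between group medians). Over all probe sets that test called 642 higher and 1480 lower. The remaining 18 probe sets, among them all those of Hhip, Smo, Gli1 and Gli2, passed neither threshold. Samples were wholly above in 7 probe sets and wholly below in 2, where 23% of all probe sets were separated (12% above and 11% below).

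The tissue left in the GFP- fraction was of mixed type. Summed signals of 3 primitive erythroid markers were 448 to 480 in GFP/+ samples and 23800 to 24700 in GFP- samples, and those of 5 surface ectoderm and endoderm markers were 394 to 429 in GFP/+ samples and 3190 to 3440 in GFP- samples. Sums of 7 lateral and intermediate mesoderm markers were 178 to 189 in GFP/+ samples and 1150 to 1230 in GFP- samples. The notochord and floor plate markers Shh and Foxa2, the 2 measured of 4 listed, summed to 109 to 134 in GFP/+ samples and 1880 to 2150 in GFP- samples. The part of this mixture in the Boc and Ptch1 differences was not tested.

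PAX3-FKHR/GFP cells and GFP- cells differ in both respects, and this comparison shares its samples with those above. Here limma and the local pooled error test each called 5 probe sets (20.8%) higher and 0 lower. Of all probe sets limma called 5.35%, 1.99% higher and 3.36% lower, and the local pooled error test called 934 higher and 1532 lower. At an unadjusted p under 0.05 limma gave 7 higher and 2 lower, both of Ptch1. The differences were 2.56 ± 0.084 and 1.56 ± 0.081 for the 2 Boc probe sets and 1.18 ± 0.11 for Cdon 1434957_at. Gas1 was higher by 0.65 ± 0.099 in 1416855_at and 0.89 ± 0.10 in 1448494_at, with limma adjusted p-values of 0.00118 and 0.000121. For Gas1 1448494_at the difference between GFP/+ and GFP- cells was 0.10 ± 0.095 (limma adjusted p = 0.623). Ptch1 1428853_at was lower by 0.44 on the log2 scale (-0.44 ± 0.11, limma adjusted p = 0.0299), under the fold limit, and passed it without PAX3-FKHR/GFP replicate 3 (-0.55).

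**Figure D3:**
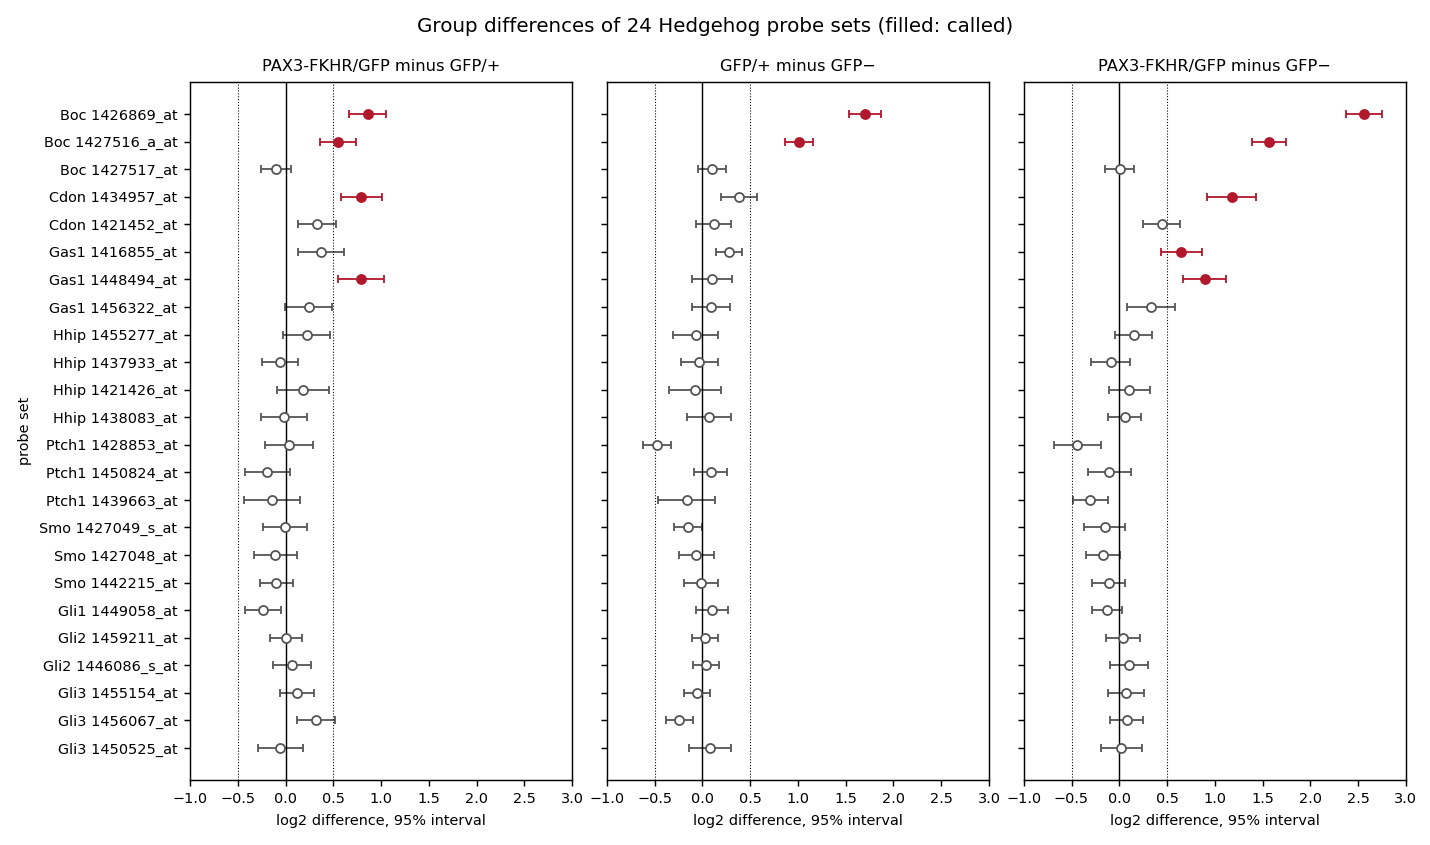
Log2 differences with 95% intervals of the 24 probe sets for PAX3-FKHR/GFP minus GFP/+ cells, GFP/+ minus GFP- cells and PAX3-FKHR/GFP minus GFP- cells (left to right), with called probe sets filled and dotted lines at a difference of 0.5 either way. Filled points are those of Boc, Cdon and Gas1, all to the right of 0.

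The rest of the pathway was read from a list of 36 genes, 33 of which had a probe set annotated to them alone, each taken from its brightest one. Between PAX3-FKHR/GFP and GFP/+ cells limma called 0 higher and 2 lower and left 31 not called, with a median difference of 0.01. The local pooled error test gave the same counts, and 1 gene was higher and 4 lower at an unadjusted p under 0.05. Both lower genes encode secreted proteins of the SCUBE family, of which Scube2 helps to release lipid-modified Hedgehog ligands from the cells that make them. Scube2 read 5.68, 5.87 and 6.17 in PAX3-FKHR/GFP cells, 7.36, 7.34 and 7.31 in GFP/+ cells and 6.17, 6.10 and 6.22 in GFP- cells. GFP/+ samples lay above those of both other groups, by -1.43 ± 0.12 for PAX3-FKHR/GFP minus GFP/+ cells (limma adjusted p = 9.29e-05), while PAX3-FKHR/GFP and GFP- cells differed by -0.26 ± 0.12 (limma adjusted p = 0.268).

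Scube3 had another order, with means of 7.14 ± 0.049 in PAX3-FKHR/GFP cells, 8.03 ± 0.036 in GFP/+ cells and 8.80 ± 0.070 in GFP- cells (SD, n = 3). It was lower by 0.89 on the log2 scale with PAX3-FKHR (-0.89 ± 0.075, limma adjusted p = 0.000114). The ligand Shh itself averaged 6.75 ± 0.27 in PAX3-FKHR/GFP cells, 6.76 ± 0.23 in GFP/+ cells and 10.82 ± 0.15 in GFP- cells. The difference between the GFP positive groups, -0.02 ± 0.15, was smaller than the spread between samples (limma adjusted p = 0.987). The intracellular inhibitor Sufu, the kinesin Kif7 and the cilium genes Ift88 and Kif3a were among the 31 not called.

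Between GFP/+ and GFP- cells 2 genes of this list were higher and 5 lower. Zic1, a zinc finger factor related to the Gli proteins, was higher in GFP/+ cells by 3.08 ± 0.071 and Scube2 by 1.17 ± 0.065. Lower in GFP/+ cells were Shh (-4.06 ± 0.12), the endocytic receptor Lrp2 (-0.88 ± 0.11), Scube3 (-0.77 ± 0.060), the glypican Gpc4 (-0.65 ± 0.11) and the heparan sulfate sulfatase Sulf1 (-0.57 ± 0.077), which was named after its value was seen, with limma adjusted p-values of 1.32e-08 to 0.00464. Lrp2 read below the array median in all 9 samples. The second probe sets of Shh and Gpc4 were not called, while 1 other of Lrp2 and 1 other of Sulf1 were called lower. Zic1 did not differ with PAX3-FKHR beyond its spread (0.03 ± 0.094, limma adjusted p = 0.967). No probe set of Sulf1 was called with PAX3-FKHR (-0.25 ± 0.094 in the brightest, limma adjusted p = 0.352). The study lists Sulf1, as Sulfatase1, and Hhip as up with PAX3-FKHR in limbs, somites or both.

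**Figure D4:**
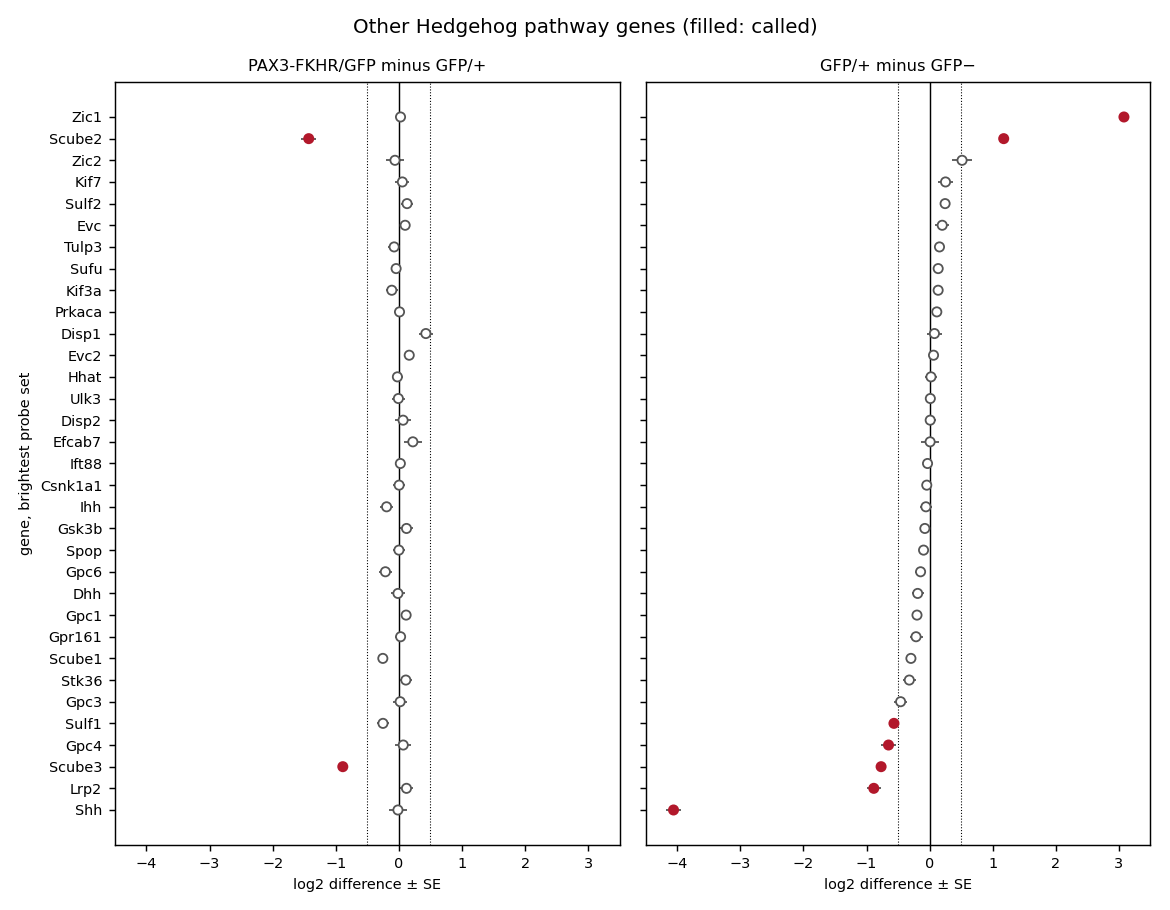
Log2 differences ± SE of 33 other Hedgehog pathway genes, each from its brightest probe set, for PAX3-FKHR/GFP minus GFP/+ cells (left) and GFP/+ minus GFP- cells (right), with called genes filled and dotted lines at a difference of 0.5 either way. Scube2 lies at -1.43 on the left and at 1.17 on the right, and Shh at -0.02 and -4.06.

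Genes that Hedgehog is known to induce in somite, neural tube or other mesoderm were read from a list of 18, all measured. With PAX3-FKHR 1 was higher, 2 were lower and 15 were not called, with a median of -0.03. Myf5, the earliest myogenic factor, averaged 8.80 in PAX3-FKHR/GFP cells and 7.91 in GFP/+ cells (0.89, limma adjusted p = 0.000283). The sclerotome genes Pax1 (8.47 in PAX3-FKHR/GFP cells and 9.04 in GFP/+ cells) and Foxc2 (9.53 in PAX3-FKHR/GFP cells and 10.09 in GFP/+ cells) were lower, with differences of -0.57 and -0.56 on the log2 scale. Ccnd1, Mycn and Bcl2, which Hedgehog induces in several tissues, differed by 0.04, -0.08 and 0.26 and were not called.

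In GFP/+ against GFP- cells 5 of these 18 genes were higher and 6 lower. Those higher were the somite genes Myf5, Pax1, Foxc2, Pax9 and Myod1, and Myf5 read 7.91 in GFP/+ cells and 2.65, below the array medians, in GFP- cells. Myod1 averaged 4.89 in GFP/+ cells and 4.21, below the array medians, in GFP- cells, and its second probe set was not called. Among those lower were the floor plate and ventral neural tube genes Foxa2, Nkx6-1, Olig2 and Nkx2-2. These averaged 3.12 to 4.01 in GFP/+ cells, below the array medians, and 5.08 to 7.91 in GFP- cells. Also lower in GFP/+ than in GFP- cells were Foxf2 (-0.899, limma adjusted p = 0.000276) and Sfrp2 (-0.521, limma adjusted p = 0.0332). Foxf2 read below the array median in every sample, and its second probe set was not called. The somite genes and the floor plate and ventral neural tube genes were named after their values were seen, so their opposite directions are only a description. The sclerotome gene Nkx3-2 of the same list was not called (0.05 ± 0.072) and read below the array medians in both groups. The median over all 18 genes, -0.06, reflects neither group. Many of these genes are also regulated by other factors, Pax3 among them, and were not used as a measure of Hedgehog activity.

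The genes whose level followed the co-receptors most closely over the 9 arrays were sought among 18192 genes, each read from its brightest probe set. For Boc 1426869_at they were Plcg2, Sowahb and Megf10 (Pearson r = 0.995 to 0.996), for Cdon 1434957_at Hsd17b7, Zfp367 and Csrnp1 (0.984 to 0.992) and for Gas1 1416855_at Ppfibp1, Slc12a2 and Frmd4a (0.985 to 0.988). Hhip 1455277_at, which differed little between groups, had lower best values (Echs1, Zfp91 and Gtf2f2, 0.973 to 0.976). These correlations run over samples that share the 3 groups, were the highest of many, and are given as a description. Of these 12 genes 0 were shared between the 4 probe sets.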

How the data were processed

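Per the labels and the study's methods, total RNA of sorted cells was amplified in 2 cycles and hybridized to Affymetrix mouse genome arrays. The authors deposited log2 expression values made with RMA, which corrects background, quantile normalizes arrays and summarizes each probe set. No RMA version was given, nor which arrays entered it together. Since quantile normalization equalizes the arrays, a change of every transcript in a group would be lost. Arrays give no counts, and 3 samples per group limit the precision.

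Of 45101 probe sets, 64 controls were left out. The platform annotation gave 34945 of the rest 1 symbol, 932 several and 9160 none, and 0 of those with several held a gene followed here. Differences were fitted with limma 3.58.1 in R 4.3.3 (lmFit, eBayes with an intensity trend) on the 6 samples of each comparison. The false discovery rate of 0.05 and log2 limit of 0.5 are those of the study's methods, which equate that log2 value with 1.5-fold, although 1.5-fold is 0.585 on the log2 scale. A 1.5-fold limit was added after seeing the data. The fits were tested on simulated data.

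Genes, lists and tests were chosen with earlier results of these data known. Other Hedgehog genes named are those called with PAX3-FKHR and up to 4 each way between GFP/+ and GFP- cells. Sulf1 was named beyond that rule. Genes named from the induced and marker lists, and those named as not called, were chosen after their values were seen. The alternatives were variance moderation, the samples fitted, the local pooled error test, a filter on dim probe sets, 2 normalizations, the replicate block, other fold limits, each sample left out, and 2 ways to read a gene.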

Additional observations from a re-analysis of the deposited data

How the results depend on the processing

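With a log2 limit of 1, 0 probe sets were higher in PAX3-FKHR/GFP cells than in GFP/+ cells and 3 were higher in PAX3-FKHR/GFP cells than in GFP- cells. At 1.5-fold, a limit chosen after seeing the data, the numbers higher were 3, 2 and 5 in the 3 comparisons. Without a limit, 4 were higher and 2 lower in GFP/+ than in GFP- cells, and 2 were lower in PAX3-FKHR/GFP cells than in GFP- cells. Of all probe sets, 8.76% passed without a limit between GFP/+ and GFP- cells. The other shares over all probe sets at these changed limits are not given. The local pooled error test called 1 (Ptch1 1428853_at) lower in GFP/+ than in GFP- cells. With the mean over probe sets, 1 gene was higher in PAX3-FKHR/GFP cells than in GFP/+ cells. With samples left out in turn, the number lower ranged over 0 to 1 for GFP/+ over GFP- cells and for PAX3-FKHR/GFP over GFP- cells, each time through Ptch1 1428853_at, and the numbers higher stayed within 1.5 times the full count. No difference that passed the p threshold changed its direction under any alternative run. The number of all probe sets called between PAX3-FKHR/GFP and GFP/+ cells, 611, was 358 without PAX3-FKHR/GFP replicate 2, 383 without GFP/+ replicate 2 and 386 without GFP/+ replicate 3. The titles share replicate numbers, but samples of the same number did not deviate together (r of -0.0957 to 0.105, and 5 of 9 arrays were closest to their own number), so the numbers were not taken as pairs. With the replicate number as a block, 4, 2 and 5 probe sets were higher in the 3 comparisons and 0 lower. Signals below the array median, as in 5 of the 24 probe sets on all arrays, limit what could be seen.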
